A study of Sus scrofa with 12 samples.

Results

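Heterotrimeric G proteins carry the signal of G protein-coupled receptors into the cell. An alpha subunit binds the guanine nucleotide, while a beta and a gamma subunit form a tight dimer that is held at the membrane by a lipid on the gamma subunit and that, once released, acts on channels, phospholipases, adenylyl cyclases and lipid kinases of its own. Cells choose among several beta and gamma genes, and the lipid differs with the choice, since GNG11 and the photoreceptor subunit GNGT1 are farnesylated and most other gamma subunits are geranylgeranylated. The genes described here are the gamma subunits GNG2, GNG4, GNG5, GNG7, GNG10, GNG11 and GNG12 and the beta subunits GNB1, GNB2 and GNB4. They were chosen as a family, and GNG11 for its level in AOC and its absence in IEC2, so its values in those groups are a description. Of the 10 genes, 7 were found by symbol among the 19681 Ensembl pig genes of the files, of which 13998 had a symbol. GNG2, GNG5 and GNG10 were not matched to an identifier and are not analysed here.

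The values came from 12 RNA sequencing libraries with 3 biological replicates (A, B and C) in each of 4 groups. In IEC2, IEC4 and IEC12, iPS cells of the pig had been induced toward endothelium for 2, 4 and 12 days, and AOC was a porcine endothelial cell line. All IEC cells were first given CHIR99021, a GSK3 inhibitor, for 2 days. IEC4 had then received BMP4, FGF2 and VEGF, and IEC12 was kept after that in endothelial growth medium with VEGF and was not sorted for CD31. AOC was not part of the induction, so culture and origin cannot be told apart from stage in any comparison with it. Expression was given as FPKM (fragments scaled to transcript length and to the mapped fragments of the library). Length is thus already accounted for, so levels of different genes can be set side by side.

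The labels were compared with defining markers. Of 14 endothelial markers 11 were found, and their summed FPKM lay between 298 and 423 in AOC. In IEC2 it was 3.44 to 5.97, in IEC4 2.04 to 3.39, and in IEC12 no more than 0.425 to 0.609. KDR went the other way between AOC and IEC2, at 1.32, 1.31 and 1.46 FPKM in AOC and 2.45, 3.99 and 2.42 in IEC2. CDH5, the endothelial cadherin, was listed at 0 in all IEC libraries, and no found marker reached an FPKM of 1 in any IEC12 library. IEC12 is therefore referred to by its name and not as endothelial cells. The epithelial list (4 of 4 found) summed to 316 to 822 FPKM in IEC4, against 13.3 to 21.2 in IEC2, 4.68 to 16.0 in IEC12 and at most 0.0509 in AOC. The neuronal list (3 of 3 found) stood at 370 to 397 in IEC12, nearly all of it STMN2, and at most 15.2 in any other library. Its member TUBB3 was instead highest in AOC, with a mean of 7.65 FPKM against 0.106 in IEC12. The mesenchymal list (8 of 8) lay between 22.9 and 112 in all groups, and the blood list (4 of 4) reached 34.1 in AOC through CD34 and 3.51 elsewhere. Of 7 pluripotency markers only NANOG and LIN28A were found, summing to 3.30 to 6.39 in IEC4 and to at most 1.52 elsewhere. FPKM totals were 426839 to 441757 in AOC and 335976 to 457194 in IEC libraries. The number of reads is unknown. In these bulk samples, fewer cells that express a gene and less RNA per cell cannot be told apart.

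GNG11 (ENSSSCG00000015324), the farnesylated gamma subunit known from endothelium and platelets, divided AOC from all stages of induction. Its FPKM was 1707, 1834 and 1708 in AOC replicates A, B and C. It was listed at 0 in all 3 IEC2 libraries. In IEC4 it was listed at 0, 0.03 and 0.308, and in IEC12 at 0.052, 0.0301 and 0.267. No IEC library thus reached 0.31 FPKM, and IEC4 and IEC12 overlapped with each other. The mean of 1749 ± 73 (SD, n = 3) placed GNG11 at rank 15 of all genes in AOC, and this single gene held 0.387 to 0.430% of the FPKM total of an AOC library. The difference of AOC and IEC2 was 10.77 on the log2(FPKM + 1) scale, given with no test because it chose the gene. In the 9 IEC libraries GNG11 stayed below the level needed for testing, so a change between stages was not tested.

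GNG12 (ENSSSCG00000036505), a broadly expressed gamma subunit, was the highest of the 4 gamma genes found in every IEC library. Its FPKM was 46.0, 45.3 and 50.7 in IEC2, 69.4, 72.1 and 60.3 in IEC4, 34.3, 34.8 and 43.1 in IEC12, and 61.7, 62.5 and 58.9 in AOC. The order of the means was IEC4 (67.3 ± 6.19), AOC (61.0 ± 1.87), IEC2 (47.3 ± 2.92) and IEC12 (37.4 ± 4.93, SD, n = 3 each). IEC4 and AOC overlapped, while each other pair of neighbours in this order was separate. AOC thus held its GNG11 on top of a GNG12 level within the range of the IEC libraries.

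GNG7 (ENSSSCG00000033949), best known from striatal neurons where it serves adenylyl cyclase signalling, was a minor gamma gene with a peak in IEC4. Its FPKM was 2.8, 3.16 and 1.44 in IEC2, 7.18, 4.1 and 6.34 in IEC4, 0.765, 0.753 and 1.69 in IEC12, and 0.583, 1.18 and 0.977 in AOC. All IEC4 libraries lay above all others, and IEC2, IEC12 and AOC overlapped in turn. GNG4 (ENSSSCG00000033307), a neuronal gamma subunit, was hardly detected. Its highest value in any library was 0.437 FPKM, it was listed at 0 in IEC2 replicate C and IEC4 replicate A, all groups overlapped, and it was too low to be tested.

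**Figure D1:**
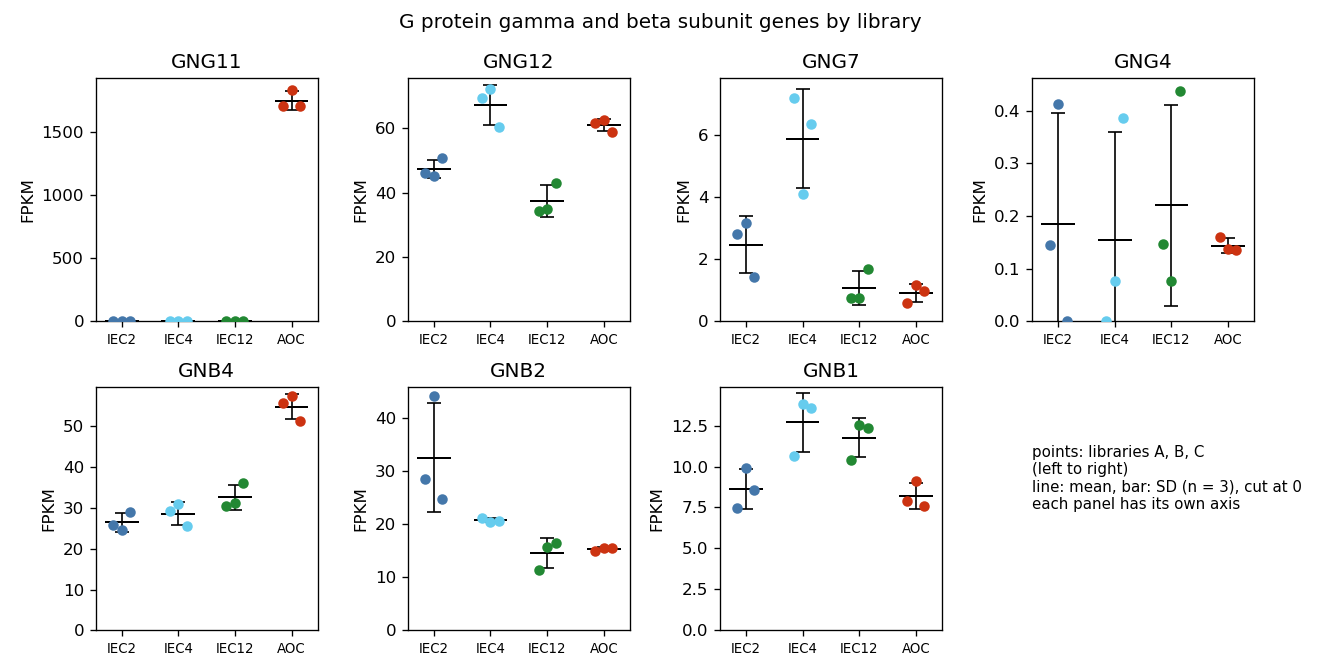
FPKM of the 7 subunit genes found (vertical axes, each from 0 and each with its own scale) in the libraries of IEC2, IEC4, IEC12 and AOC. Points are libraries, lines are means and bars are SD (n = 3). GNG11 stands at 1707 to 1834 in AOC and below 0.31 elsewhere, GNG7 peaks in IEC4, and GNB4 is highest in AOC.

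Among the beta subunits, GNB4 (ENSSSCG00000037583) was the one with its highest level in AOC. Its FPKM was 25.9, 24.6 and 29.0 in IEC2, 29.3, 31.0 and 25.5 in IEC4, 30.4, 31.2 and 36.2 in IEC12, and 55.6, 57.4 and 51.4 in AOC. The 3 AOC libraries lay above every IEC library. IEC4 overlapped with both other stages, and each IEC12 library lay above those of IEC2. GNB2 (ENSSSCG00000007669), a ubiquitous beta subunit, was highest in IEC2. It stood at 28.6, 44.2 and 24.8 FPKM in IEC2, 21.3, 20.5 and 20.6 in IEC4, 11.4, 15.7 and 16.6 in IEC12, and 14.9, 15.6 and 15.6 in AOC. IEC2 and IEC4 were separate in this order, as were IEC4 and AOC, and AOC and IEC12 overlapped. The IEC2 mean of 32.5 ± 10.3 rests in part on replicate B. GNB1 (ENSSSCG00000021890), the beta subunit of rod transducin that is also used throughout the body, was the lowest of these 3 beta genes in all groups. Its FPKM was 7.44, 9.89 and 8.57 in IEC2, 10.6, 13.8 and 13.6 in IEC4, 10.4, 12.6 and 12.3 in IEC12, and 7.87, 9.1 and 7.61 in AOC. IEC4 and IEC12 overlapped above IEC2 and AOC, which overlapped with each other.

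Subunit choice was then described as the share of each gene in the summed FPKM of its family, per library and with no test. The shares cover the genes found, so that GNG2, GNG5 and GNG10 are outside the gamma sum. In AOC, GNG11 made up 96.6% ± 0.0861 of the gamma sum and GNG12 3.37% ± 0.1 (SD, n = 3). In the IEC groups GNG12 held the largest share, with 94.6% ± 2.35 in IEC2, 91.6% ± 2.6 in IEC4 and 96.5% ± 1.56 in IEC12. Nearly all of the rest was GNG7, at 4.98% ± 1.96, 8.05% ± 2.32 and 2.67% ± 0.91 in the same order, against 0.0501% in AOC. With GNG11 set aside, GNG12 formed 98.3% of the remaining gamma sum in AOC.

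In the beta sum, shares differed less between the IEC groups and AOC, which is not a stage of the induction. GNB4 held 39.8% ± 7.8 of the beta sum in IEC2, 46.0% ± 2.89 in IEC4, 55.4% ± 2.86 in IEC12 and 69.9% ± 1.05 in AOC. Its shares in IEC2 (31.3 to 46.5%) and IEC4 (42.7 to 47.9%) overlapped. GNB2 held 47.4% ± 8.26, 33.5% ± 1.88, 24.6% ± 2.41 and 19.6% ± 1.12 in the same order. GNB2 and GNB4 overlapped in their shares in IEC2, and in every IEC4, IEC12 and AOC library GNB4 exceeded GNB2. In the tests given below, the levels of GNB4 and GNB2 were not called between successive stages, apart from some alternative fits. GNB1 took 12.8% ± 0.879, 20.4% ± 2.78, 20.0% ± 1.07 and 10.4% ± 0.567. The sum of the 4 gamma genes was 0.749 ± 0.113 times that of the 3 beta genes in IEC2, 1.18 ± 0.0623 times in IEC4 and 0.658 ± 0.0526 times in IEC12. In AOC it was 23.1 ± 0.568 times the beta sum, with a gamma sum of 1812 ± 74.5 FPKM and a beta sum of 78.3 ± 3.73. Without GNG11, which was chosen for its level there, the gamma sum of AOC was 62.1 ± 1.91 FPKM, below its beta sum. As GNG2, GNG5 and GNG10 are outside the gamma sum, these ratios depend on which genes were found. They do not give the balance of all gamma to all beta subunit RNA. The beta sums had means of 58.9 to 67.6 in the IEC groups, and those of AOC and IEC2 overlapped.

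**Figure D2:**
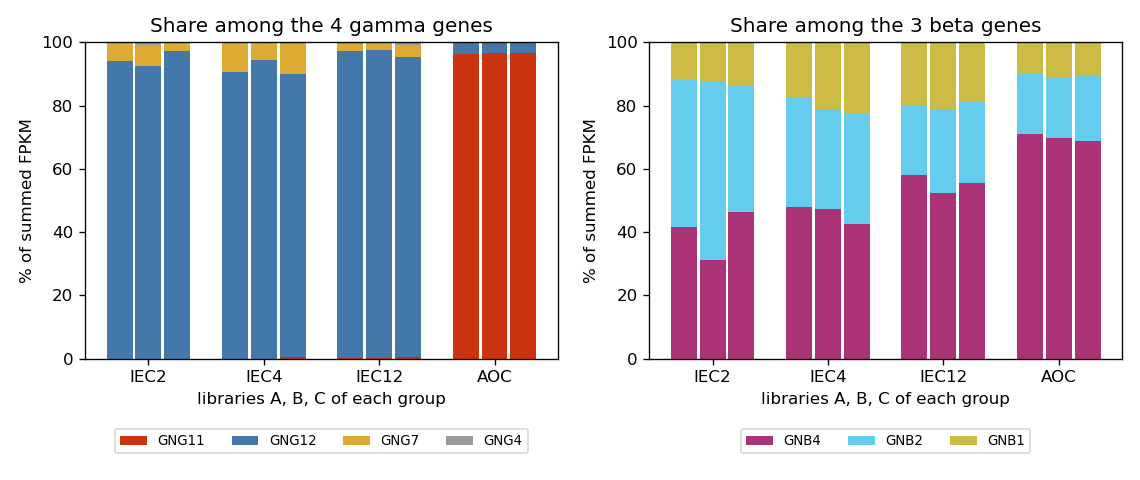
Share (%) of each subunit in the summed FPKM of the 4 gamma genes (left) and the 3 beta genes (right), 1 bar per library in the order A, B, C. GNG11 fills 96.6% of the gamma sum in AOC and GNG12 over 89% in each IEC library, and GNB4 holds 39.8% of the beta sum in IEC2 and 69.9% in AOC.

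Differences between groups were tested with limma on log2(FPKM + 1) over all genes that reached 1 FPKM in 3 or more of the libraries fitted, and a gene was called at a Benjamini-Hochberg adjusted p under 0.05. GNG7, GNG12, GNB1, GNB2 and GNB4 were tested in each comparison (5 members). None passed the stricter limits of the study (p and adjusted p under 0.001, log2 fold change above 3), which 1.18%, 0.939% and 4.41% of genes passed in the order given here. The study stated those limits for iPS cells against AOC, and not for the comparisons made here. The 3 comparisons share samples, IEC4 between the first 2 and IEC12 between the last 2.

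From IEC2 to IEC4, 3 of 5 tested members rose and 0 fell, where 37.3% of the 10542 genes tested were called, 24.8% higher and 12.5% lower. GNG7 rose by 0.996 on the log2 scale (standard error 0.283, adjusted p = 0.0208, limma), GNG12 by 0.50 (standard error 0.135, adjusted p = 0.0169, limma) and GNB1 by 0.51 (standard error 0.168, adjusted p = 0.039, limma). All 3 were higher in each IEC4 library than in any IEC2 library. GNB4 differed by 0.11 (adjusted p = 0.566) and GNB2 by -0.58 (adjusted p = 0.061), both with limma. The median of all genes itself was 0.20 higher in IEC4, and with median-of-ratios scaling, which set that median at -0.01, GNG12 differed by 0.25 (adjusted p = 0.218, limma) and GNB1 by 0.28 (adjusted p = 0.19, limma), whereas GNB2 was called lower by -0.82 (adjusted p = 0.0095, limma). Leaving out 1 library also cost each call at a similar difference. The call of GNG7 was lost without IEC4 replicate A, IEC4 replicate C or IEC2 replicate C (0.76 to 0.93, adjusted p from 0.0612 to 0.076), that of GNG12 without IEC4 replicate A or B or IEC2 replicate A or B (0.44 to 0.48, adjusted p from 0.0526 to 0.0709), and that of GNB1 without IEC4 replicate B or C or IEC2 replicate A or C (0.41 to 0.51, adjusted p from 0.0842 to 0.132). GNB2 was called without IEC2 replicate C (-0.75, adjusted p = 0.0348, limma) and in a fit of IEC2 and IEC4 alone (-0.58, adjusted p = 0.0486, limma). The summed epithelial markers, at 316 to 822 FPKM in IEC4 and 13.3 to 21.2 in IEC2, moved with this comparison, and their part in these changes was not tested.

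From IEC4 to IEC12, both tested gamma members fell and no beta member was called, where 44.2% of 10542 genes were called, 26.9% lower and 17.3% higher. GNG7 fell by 1.73 on the log2 scale (standard error 0.283, adjusted p = 0.00123, limma), its mean FPKM being 5.49 times as high in IEC4. GNG12 fell by 0.83 (standard error 0.135, adjusted p = 0.00116, limma), its mean being 1.8 times as high in IEC4. The median of all genes was -0.15. Both calls held in each alternative fit, with adjusted p up to 0.0082. GNB1 differed by -0.10 (adjusted p = 0.662) and GNB4 by 0.18 (adjusted p = 0.297), and GNB2 by -0.50 (adjusted p = 0.0853), although each IEC12 library held less GNB2 than any IEC4 library. GNB2 was called at equal totals (-0.70, adjusted p = 0.0426, limma) and GNB4 with median-of-ratios scaling (0.41, adjusted p = 0.0492, limma). The neuronal marker STMN2 rose (log2 change 5.01) and the epithelial KRT8 fell (-5.59) between the same groups, and their part in these changes was not tested. TUBB3 and ELAVL4, the rest of the neuronal list, had means of 0.0302 and 0.149 FPKM in IEC4 and of 0.106 and 0.153 in IEC12.

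From IEC12 to AOC, GNB4 and GNG12 were higher in AOC and GNB1 was lower, where 58.5% of 11053 genes were called, 22.4% higher and 36.2% lower. GNB4 was 0.73 higher on the log2 scale (standard error 0.119, adjusted p = 0.000233, limma), with a mean FPKM 1.68 times that of IEC12. GNG12 was 0.70 higher (standard error 0.117, adjusted p = 0.000301, limma), with a mean 1.63 times that of IEC12. The median of all genes was -0.21, and both calls held in each alternative fit, with adjusted p up to 0.00356. GNB1 was lower in AOC by -0.47 (standard error 0.152, adjusted p = 0.0186, limma). That call was lost without AOC replicate A (0.0584) or C (0.0665), without IEC12 replicate B (0.0683) or C (0.0527), and with median-of-ratios scaling, where the difference was -0.22 (adjusted p = 0.182). GNG7 and GNB2 differed by -0.10 (adjusted p = 0.776) and 0.09 (adjusted p = 0.722). The summed endothelial markers, at 298 to 423 FPKM in AOC and 0.425 to 0.609 in IEC12, moved with this comparison, and their part in it was not tested.

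**Figure D3:**
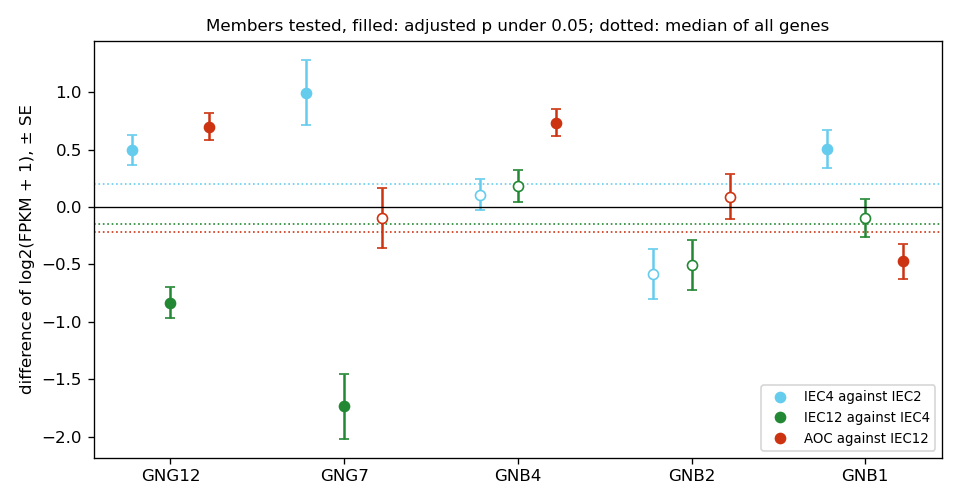
Differences of mean log2(FPKM + 1) between groups (vertical axis, bars are standard errors from limma) for the 5 members tested. Filled points have an adjusted p under 0.05 and dotted lines are the medians of all genes; GNG12 and GNG7 fall from IEC4 to IEC12, and GNB4 and GNG12 are higher in AOC than in IEC12.

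AOC and IEC2 were set side by side without a test, because this contrast chose GNG11. GNG11, separate by the way it was chosen, and GNG4, too low to be among the genes tested, are left out here. GNB4 (2.07 times the IEC2 mean) and GNG12 (1.29 times) were higher in AOC, and GNB2 (0.472 times) and GNG7 (0.37 times) were lower. Their replicates did not overlap, while those of GNB1 did. Of the 11053 genes that passed the filter, 71.5% had no overlap, 29.9% being higher in AOC and 41.6% lower.

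Of 7 further beta and gamma genes 3 were found. GNB5, a beta subunit that pairs with a class of RGS proteins in place of a gamma subunit, had means of 8.87 ± 0.753 FPKM in IEC2, 10.7 ± 2.66 in IEC4, 6.21 ± 1.82 in IEC12 and 5.81 ± 1.28 in AOC (SD, n = 3). It was called lower in IEC12 than in IEC4, by 0.71 on the log2 scale (adjusted p = 0.0344, limma), although replicates overlapped. GNB3, the cone photoreceptor subunit, stayed at or below 0.349 FPKM. GNGT1 was listed at 0 in 10 of 12 libraries and at 0.376 and 0.291 in AOC replicate A and IEC12 replicate B. GNB1L, a WD repeat protein named for its likeness to beta subunits and added here after its values were seen, was at 52.7 FPKM in AOC and 14.9 in IEC12 (log2 difference 1.87, adjusted p = 0.000163, limma).

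By position, the level of GNG11 in AOC stood beside neighbours of very different levels. In the RefSeq annotation of Sscrofa11.1, the assembly that the submitters' processing notes name as susScr11, GNG11 lies at chr9:73721327-73726229 and overlaps the long noncoding gene LOC106504955. As no source used here states that strand was counted, reads of the overlapping genes cannot be told apart. GNGT1, which spans chr9:73403647-73717746, ends 3.58 kb from GNG11 and was nearly silent in AOC. TFPI2, an inhibitor of serine proteases that lies within the span of GNGT1 and 26.7 kb from GNG11, was at 130, 136 and 137 FPKM in AOC and between 0.295 and 3.64 in the IEC libraries. Its difference between AOC and IEC12 was 5.08 on the log2 scale (standard error 0.254, adjusted p = 1.27e-08, limma). BET1, a vesicle transport gene 55.9 kb away, was at 8.32 FPKM in AOC and 5.27 in IEC12 (log2 difference 0.57, adjusted p = 0.00797, limma). COL1A2, a fibrillar collagen 448 kb away, was at 14.0 in AOC and 0.521 in IEC12 and was tested through AOC alone, while CASD1 at 550 kb was lower in AOC (-1.75, adjusted p = 9.02e-06, limma). CALCR, the calcitonin receptor, was at or below 0.183 FPKM in all libraries. These neighbours were chosen by place after the levels of GNG11 were known.

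**Figure D4:**
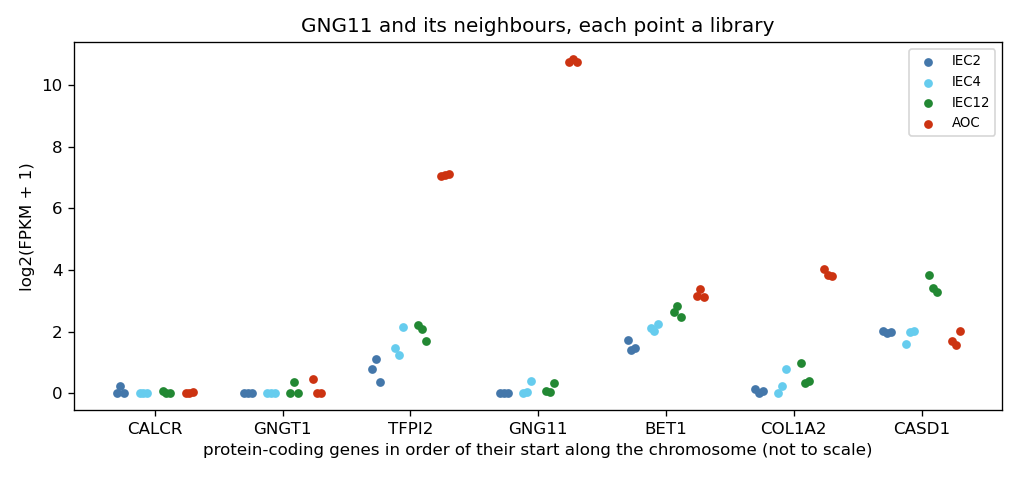
log2(FPKM + 1) (vertical axis) of GNG11 and protein-coding genes around it, in the order of their starts and not to scale, with 1 point per library. In AOC, GNG11 and TFPI2 stand far above the IEC libraries, while GNGT1 stays near 0.

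The remaining members lie on other chromosomes of the same assembly. GNG12 is at chr6:144782478-144918556 and GNB1 at chr6:63867155-63957514, GNG7 at chr2:75929877-76083557, GNG4 at chr14:55652743-55725085, GNB2 at chr3:8579037-8585268 and GNB4 at chr13:117442594-117513387. GNB2 overlaps GIGYF1, GNB1 overlaps the protein-coding gene LOC110261347 and GNG4 holds the pseudogene LOC110256819, and reads of the overlapping stretches cannot be told apart.

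The genes with a pattern most like that of GNG11 over the 12 libraries, among 9158 with a symbol, were CADM1, VSIG2, FLI1, ROBO4 and TM4SF18 (Pearson's r from 0.9994 to 0.9995 on log2(FPKM + 1)). All were on in AOC and at or near 0 elsewhere. They thus passed the filter through AOC alone, and their likeness rests on the same contrast that chose GNG11. FLI1, an ETS transcription factor of endothelium and blood, was at 54.0 ± 2.86 FPKM in AOC, TM4SF18 at 43.5 ± 4.57, CADM1 at 4.5 ± 0.277, VSIG2 at 3.67 ± 0.0978 and ROBO4, an endothelial guidance receptor, at 1.95 ± 0.0905 (SD, n = 3). As 79 genes had an r above 0.99, the order among them says little, and the values describe 12 libraries in separate groups. For GNG7 the closest were LCP1 (r = 0.965), FGGY (r = 0.959) and WDTC1 (r = 0.957), all highest in IEC4.

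Other genes of the pathway were examined as lists. A gene that reaches the level for testing through 1 group alone was let in by its level in that group. Such genes are given by their values and left out of the counts and medians, a restriction set after the values were seen. Among all genes left, 22.9% were called higher and 12.9% lower in IEC4 than in IEC2 (9168 genes, median 0.17 on the log2 scale), 18.3% and 25.1% in IEC12 against IEC4 (median -0.11), and 21.0% and 38.1% in AOC against IEC12 (9562 genes, median -0.25). None of the tested subunit members was of this kind.

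Alpha subunits, the partners of the dimer, were found for 12 of 16 listed genes. From IEC2 to IEC4, 1 of 8 rose and 1 fell (12.5% each, against 22.9% and 12.9% of all genes, median 0.29), and from IEC4 to IEC12 again 1 rose and 1 fell (against 18.3% and 25.1%, median -0.25). GNAI1, an inhibitory alpha subunit, fell at each step, with means of 73.9, 44.3 and 24.8 FPKM (log2 changes of -0.72 and -0.83, adjusted p = 0.00842 and 0.00373, limma). GNAT3, the taste transducin gustducin, rose from IEC2 to IEC4 (log2 change 2.21, adjusted p = 0.00447, limma). Its IEC4 replicates A, B and C were spread widely, at 8.47, 1.01 and 4.38 FPKM, against a mean of 0.012 in IEC2. GNAI3, another inhibitory alpha subunit, rose from IEC4 to IEC12 (0.33, adjusted p = 0.0395, limma). In AOC against IEC12, 0 of 8 were higher and 4 were lower (50%, against 38.1% of all genes, median -0.20). They were GNAI1, GNAI3, GNAT3 and GNAQ, which activates phospholipase C and was at 8.0 FPKM in AOC against 30.0 in IEC12 (-1.78, adjusted p = 8.11e-07, limma). GNA14, a relative of GNAQ that was tested through its level in AOC, had means of 6.72 FPKM there and 0.705 in IEC12.

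Regulators of G protein signalling (RGS), which speed up the return of alpha subunits to the inactive state, were found for 16 of 20 listed genes, and only 3 could be counted. From IEC2 to IEC4, 0 of 3 rose and 1 fell (against 22.9% and 12.9% of all genes, median -0.34), and from IEC4 to IEC12, 0 rose and 1 fell (against 18.3% and 25.1%, median 0.15). RGS2 fell from 10.5 to 0.905 FPKM between IEC2 and IEC4 (log2 change -2.56, adjusted p = 7.69e-05, limma), and RGS4 fell from 64.3 to 14.0 between IEC4 and IEC12 (-2.04, adjusted p = 0.00108, limma). In AOC against IEC12, 2 of 3 were higher and 1 was lower (against 21.0% and 38.1%, median 1.30). RGS2 (2.39, adjusted p = 4.67e-06, limma) and RGS10 (1.30, adjusted p = 2.42e-05, limma) were higher and RGS4 was lower (-0.83, adjusted p = 0.0417, limma). Others were tested through 1 group alone. RGS5, a gene known from pericytes, lay between 3.93 and 24.6 FPKM in IEC4, was listed at 0 in IEC2 and had a mean of 0.877 in IEC12. In AOC, RGS16 had a mean of 6.28 FPKM and RGS7, which pairs with GNB5, of 5.66, against 0.0249 and 0.244 in IEC12. The mean of RGS7 in IEC4 was 1.14.

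A list of effectors of the beta-gamma dimer and their relatives was found for 25 of 27 genes, of which 6 could be counted. It was drawn up by gene family, so not every gene on it is acted on by the dimer itself. From IEC2 to IEC4, 2 of 6 rose and 1 fell (33.3% and 16.7%, against 22.9% and 12.9% of all genes, median 0.48), and from IEC4 to IEC12, 0 rose and 1 fell (against 18.3% and 25.1%, median -0.27). KCNJ3, a potassium channel subunit opened by the dimer, rose from 0.76 to 12.7 FPKM between IEC2 and IEC4 (log2 change 2.99, adjusted p = 4.59e-05, limma), was at 6.73 in IEC12 and was listed at 0 in AOC. PLCB4, a phospholipase C, rose between IEC2 and IEC4 (0.81, adjusted p = 0.00422, limma), while PLCB1, another, fell from 4.29 to 1.36 FPKM (-1.16, adjusted p = 0.000855, limma). In AOC against IEC12, 0 of 6 were higher and 4 were lower (66.7%, against 38.1%, median -0.91), namely KCNJ3, PLCB1, PLCB4 and PIK3CB, a catalytic subunit of a lipid kinase. The adenylyl cyclases ADCY7 and ADCY4, tested through AOC alone, had means of 2.94 and 1.63 FPKM in AOC and 0.259 and 0.0351 in IEC12.

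A list of genes for the folding of G protein subunits and for attaching, trimming or carrying their lipids was found for 17 of 19. Not every gene on it acts on the beta-gamma dimer itself. FNTA, which encodes the alpha subunit shared by both prenyltransferases, was one not analysed here. FNTB, the beta subunit of the farnesyltransferase that modifies GNG11, had means of 2.03 FPKM in IEC2, 1.63 in IEC4, 1.22 in IEC12 and 2.0 in AOC, and was called higher in AOC than in IEC12 (log2 difference 0.45, adjusted p = 0.0376, limma) although replicates overlapped. PGGT1B, its counterpart in the enzyme that attaches the longer lipid, fell from 21.0 to 12.2 between IEC2 and IEC4 (log2 change -0.73, adjusted p = 0.00363, limma). From IEC2 to IEC4, 2 of 16 rose and 4 fell (12.5% and 25%, against 22.9% and 12.9% of all genes, median -0.069). From IEC4 to IEC12, 3 rose and 1 fell (18.8% and 6.25%, against 18.3% and 25.1%, median 0.097). In AOC against IEC12, 3 were higher and 7 lower (18.8% and 43.8%, against 21.0% and 38.1%, median -0.30). RCE1, the protease that trims prenylated proteins, fell from IEC4 to IEC12 (-0.78, adjusted p = 0.0307, limma). PDE6D, a carrier of prenylated proteins, was at 101 FPKM in AOC and 58.9 in IEC12 (0.77, adjusted p = 0.000676, limma), and ZMPSTE24, a protease of prenylated proteins, at 23.7 and 64.4 (-1.40, adjusted p = 4.79e-06, limma).

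Of 28 G protein-coupled receptors known from endothelium, 23 were found. From IEC2 to IEC4, 2 of 7 rose, the protease-activated receptor F2R and the endothelin receptor EDNRB, and CALCRL, the receptor of adrenomedullin, fell (28.6% and 14.3%, against 22.9% and 12.9% of all genes, median 0.14). EDNRB went from 4.48 to 26.5 FPKM (log2 change 2.31, adjusted p = 0.000149, limma). From IEC4 to IEC12, CALCRL rose and 4 of 7 fell, namely ACKR3, EDNRB, HRH1 and S1PR1 (57.1%, against 25.1% of all genes, median -1.06). F2RL1, tested through IEC4 alone, had means of 0.261 FPKM in IEC2, 25.8 in IEC4 and 0.371 in IEC12. In AOC against IEC12, 4 of 8 were higher and 2 were lower (50% and 25%, against 21.0% and 38.1%, median 0.59). CXCR4, the receptor of CXCL12, was at 63.5 against 2.61 FPKM (4.17, adjusted p = 4.23e-08, limma), and S1PR1, the sphingosine-1-phosphate receptor of endothelium, at 20.8 against 0.298 (4.06, adjusted p = 2.24e-09, limma). ACKR3 and CALCRL were also higher, and EDNRB, listed at 0 in AOC, and the histamine receptor HRH1 were lower. ADGRL4, an adhesion receptor tested through AOC alone, had means of 15.5 FPKM in AOC, 2.17 in IEC4 and 0.413 in IEC12.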

How the data were processed

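RNA was amplified by Smart-Seq2 per the labels, and the authors deposited 1 table of FPKM values per library. The submitters' processing notes name Bowtie2 2.2.3, TopHat2 2.0.12, Cufflinks 2.2.1 and the build susScr11, and the annotation and any scaling between libraries are not given in the sources used here. Identifiers were named from a table of Ensembl gene symbols. The members and gene lists were chosen with earlier results of these data known. Genes named are all members, the further beta and gamma genes, from each other list those with the largest changes among called genes without overlap of replicates, the genes most like GNG11 and GNG7, and markers, of which a selection is given.

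The tests used log2(FPKM + 1), on which changes of low genes come out too small, and limma 3.58.1 in R 4.3.3 (lmFit, contrasts.fit, eBayes with trend, two-sided), with genes kept where 3 or more libraries reached 1 FPKM. IEC groups were compared in a fit of 9 libraries, and AOC with IEC12 in a fit of 12. An FPKM of 0 can be a failed estimate. The number of reads is unknown, and steps of low values in 2556 genes put the depth of the libraries between 0.649 (IEC12 replicate A, where a value of 2 times this gave steps of nearly the same frequency) and 1.2 times their median. The test was run on simulated data for IEC4 against IEC2, where a log2 change of 2 was given to 200 genes and 182 were called (8 other genes were called, of 10082 tested), and a change of 1 to 200 genes, of which 91 were called (6 others, of 10090). Python 3.11.15 with pandas 2.3.3, NumPy 2.4.6 and matplotlib 3.10.9 served for shares, correlations and figures. No gene sequence is shown. Alternatives were a pseudocount of 0.1, other filters, each replicate left out, the replicate letter as a block, fits restricted to the groups in question, 2 scalings of libraries, a variance not tied to expression and stricter limits.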

Additional observations from a re-analysis of the deposited data

How the results depend on the processing

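The alternatives were set with earlier results of these data known, except the gamma sum without GNG11, which was chosen after seeing the data, and where results changed the cause was not tested. For the 5 members tested, 177 differences kept their direction and side of the threshold over the alternatives, 20 lost a call, 5 gained one and 7 changed sign. The number of members called between IEC2 and IEC4 (3) was 1 at equal totals, 2 with median-of-ratios scaling, 4 in a fit of these groups alone and 1 to 2 without 1 replicate. Between IEC4 and IEC12 (2) and between IEC12 and AOC (3) it was 2 and 2 to 3 without 1 replicate. With the limits of the paper (p and adjusted p under 0.001, log2 fold change above 3) it was 0 in each comparison, and 124, 99 and 487 of all genes passed, against 3932, 4660 and 6469. With a log2 fold change above 1 it was 0, 1 and 0, and 1928, 2385 and 3600 genes passed. Under the replicate block, members called were 3, 2 and 3, and 3900, 4569 and 6303 genes passed. The block changed no call of a member. Deviations of same-lettered libraries correlated by -0.073 to 0.058, -0.179 to 0.025 and -0.514 to 0.066 across genes, so the letters are not taken to pair the libraries, and of the 6 libraries in each comparison 1, 0 and 0 correlated best with that of its own letter.

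The changes of sign concern differences that were not called. With median-of-ratios scaling, GNB4 was at -0.14 from IEC2 to IEC4, GNB1 at 0.12 from IEC4 to IEC12 and GNG7 at 0.048 from IEC12 to AOC, where the medians of all genes were -0.01, 0.04 and -0.01. At equal totals GNB4 was at -0.022 from IEC4 to IEC12, with a median of -0.32. For AOC against IEC12, GNG7 was at 0.033 without AOC replicate A and 0.11 without IEC12 replicate C (range without 1 replicate -0.20 to 0.11), and GNB2 at -0.066 without IEC12 replicate A (range -0.066 to 0.18). With GNB3 and GNB5 added to the beta sum, GNB1 held 11.3% in IEC2, 17.5% in IEC4, 18.1% in IEC12 and 9.71% in AOC, GNB2 18.3% in AOC and 28.6% in IEC4, and GNB4 65.0% in AOC, 39.2% in IEC4 and 50.1% in IEC12. Without GNG11 in the gamma sum, GNG4, GNG7 and GNG12 held 0.232%, 1.47% and 98.3% in AOC. By Spearman's rho the 5 genes most like GNG11 had 0.608 to 0.86 and ranked only between 252 and 1451.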
